A study of Mus musculus with 10 samples.

Results

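The C-type lectin receptors of liver endothelium were examined as 9 genes taken by name: Clec4g, Cd209a, Cd209b, Clec1a, Clec1b, Clec2d, Clec14a, Cd93 and Colec12. All 9 were among the 24704 genes tested, and no gene was removed for a low value. RNA came from mouse liver sinusoidal endothelial cells of 2 groups, 5 arrays each, and every array held cells pooled from 3 mice. In the knockout group, labelled Gata4-LSEC-KO, the driver line C57BL/6N-Tg(Clec4g-icre)1.1Sgoe had been crossed to the floxed line STOCK Gata4tm1.1Sad/J, so that Cre recombinase is made under Clec4g control sequences. The control group, labelled WT, consisted of sibling mice. The labels do not say whether the controls carried a floxed allele or the transgene, how much sequence around Clec4g the transgene holds, or the age and sex of the animals. Cells were taken from collagenase-digested livers by density gradient and then by bead selection for CD146, which Mcam encodes.

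C-type lectins share a fold that in many members binds sugars in the presence of calcium, while others bind proteins. On liver sinusoidal endothelium they serve to capture glycoproteins, pathogens and cells from slow-flowing portal blood. Clec4g encodes LSECtin, a receptor typical of this endothelium, and Cd209a and Cd209b are mouse relatives of human DC-SIGN that lie in the same gene cluster. Clec1a and Clec1b belong to the natural killer receptor-like branch of the family. CLEC-2, the product of Clec1b, binds podoplanin and signals through the kinase SYK in platelets. Clec2d encodes a ligand of NK cell receptors, Clec14a and Cd93 encode related endothelial proteins that both bind multimerin 2, and Colec12 encodes a membrane collectin that acts as a scavenger receptor.

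In the knockout arrays 2 of the 9 genes fell (Clec1b and Clec4g), 1 rose (Cd209a) and 6 did not pass the threshold, an adjusted p of 0.05 over all genes tested. Clec1b was 2.59-fold lower, Clec4g 1.69-fold lower and Cd209a 4.78-fold higher. Over all 24704 genes 0.846% were called lower, 1.3% higher and 2.14% in either direction by the same rule. The groups did not overlap for 4 of the 9, Clec4g and Clec1b with the knockout below and Cd209a and Cd93 with it above. Over all genes this held for 2.37% with the knockout below, 2.55% with it above and 4.93% in all. Each difference is a log2 fold change, knockout minus control, and the test is limma's moderated linear model with Benjamini-Hochberg adjustment. The values are deposited RMA values on a log2 scale. They can be compared between arrays for 1 gene, but not between genes, since each gene has its own probes. In such bulk samples fewer cells of a type and less RNA per cell cannot be told apart.

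**Figure D1:**
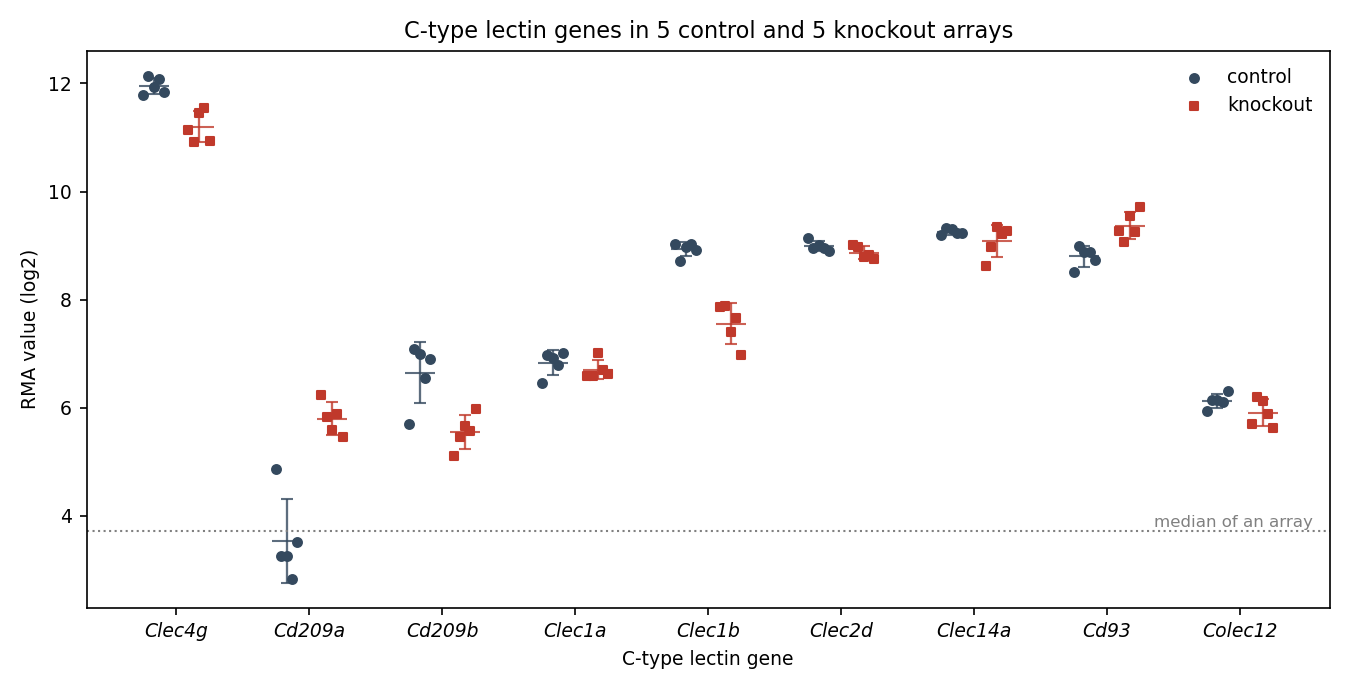
RMA values (log2, vertical axis) of the 9 C-type lectin genes in 5 control arrays (circles) and 5 knockout arrays (squares), with the mean and SD of each group and the median of an array as a dotted line. Clec4g and Clec1b lie lower in all knockout arrays and Cd209a and Cd93 higher, while the control array at 5.71 for Cd209b lies among the knockout values. Levels of different genes cannot be set against each other.

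Sequences upstream of the 3 genes that passed and of Cd209b are shown because they are the members with the largest changes. Of the 9 genes, 6 have an upstream sequence in the RefSeq table used here. Those of Clec1a, Cd93 and Colec12 are not shown. Each window holds 200 bases and ends 50 bases before a RefSeq transcript start, on GRCm38.p6, written 5′ to 3′ on the strand of the gene. Capitals mark GATAA or its reverse complement TTATC, a form of the core letters bound by GATA factors, searched on both strands.
Clec1b, chr6:129397047-129397246, plus strand: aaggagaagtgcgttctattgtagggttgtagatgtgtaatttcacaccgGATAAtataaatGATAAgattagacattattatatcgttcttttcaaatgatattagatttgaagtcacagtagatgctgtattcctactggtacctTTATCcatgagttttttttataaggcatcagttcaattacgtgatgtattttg
Clec4g, chr8:3720702-3720901, minus strand: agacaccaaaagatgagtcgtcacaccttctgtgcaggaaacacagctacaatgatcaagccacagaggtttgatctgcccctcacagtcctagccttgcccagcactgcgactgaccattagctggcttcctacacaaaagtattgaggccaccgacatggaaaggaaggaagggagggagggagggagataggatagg
Cd209a, chr8:3749035-3749234, minus strand: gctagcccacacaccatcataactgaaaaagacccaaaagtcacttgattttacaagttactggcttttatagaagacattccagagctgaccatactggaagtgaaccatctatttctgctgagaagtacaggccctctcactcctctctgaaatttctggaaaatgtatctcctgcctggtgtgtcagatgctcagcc
Cd209b, chr8:3926892-3927091, minus strand: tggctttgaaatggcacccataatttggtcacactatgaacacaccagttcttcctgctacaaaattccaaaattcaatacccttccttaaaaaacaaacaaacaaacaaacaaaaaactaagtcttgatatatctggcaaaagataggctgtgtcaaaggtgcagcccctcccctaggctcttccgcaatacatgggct
The Clec1b window held 3 matches, beginning 200, 188 and 103 bases before the start. The windows of Clec4g, Cd209a, Cd209b, Clec2d and Clec14a held no GATAA or TTATC. Other forms, such as the GATAG in the windows of Clec4g and Cd209b, were neither searched nor marked. Of 32851 windows of this length, 19.3% held at least 1 match and 0.457% held 3 or more. A match describes the letters and is not a measured binding site, and a window without one says nothing of a factor's binding.

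Before the lectins, the labels and samples were checked. Gata4 read 8.35, 8.36, 8.73, 8.59 and 8.90 in knockout replicates 1 to 5 and 8.53, 8.80, 8.90, 8.71 and 8.61 in the controls (log2 fold change -0.12 ± 0.13 SE, adjusted p = 0.742 by limma). No source used here places its probes relative to the deleted part, so this value does not check the labels. Markers of sinusoidal endothelium were present in every array and lower in the knockout. Of 10 such genes 5 passed, all lower (Ctsl, F8, Dnase1l3, Mrc1 and Gpr182), 9 had a negative and 1, Lyve1, a positive difference, and the median log2 fold change was -0.54. The mean over the list was 10.39 to 10.80 in the knockout and 10.92 to 11.17 in the control arrays, without overlap. Of 10 pan-endothelial markers 1 passed, higher, and their mean was 9.91 to 10.36 against 9.91 to 10.19. That marker was Mcam, at 8.91 to 9.14 in the knockout and 7.48 to 7.96 in the control arrays. Its log2 fold change was 1.24 ± 0.11 (SE, adjusted p = 0.000242 by limma). Mcam encodes CD146, by which the cells were selected, and the part of its difference in the other results was not tested. The correlation of control replicate 1 with the other arrays, across genes, was 0.920 to 0.944, against 0.969 to 0.988 among the other 9. Markers of neutrophils and monocytes were higher in the knockout, with 8 of 10 past the threshold and list means of 4.61 to 6.11 against 2.75 to 3.48 in the controls. Bile duct markers were higher too, with 2 of 7 past the threshold and list means of 4.87 to 6.94 against 3.72 to 4.69. Of 9 measured hepatocyte markers 1 passed higher (Tat) and 2 lower (Cyp2c29 and Cyp2e1). Their list mean was 6.10 to 7.72 in the knockout and 6.46 to 6.87 in the control arrays. Of 10 hepatic stellate cell markers 0 passed, with 9 positive and 1 negative difference. Their list mean was 6.32 to 8.26 in the knockout and 5.22 to 7.53 in the control arrays. Of 10 NK and T cell markers 0 passed, with list means of 3.15 to 3.48 in the knockout and 2.98 to 3.40 in the control arrays. The list means of sinusoidal endothelium, bile duct cells, hepatocytes, stellate cells and NK and T cells were not used as covariates. Their part in the lectin results was not tested.

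Clec1b, whose product binds podoplanin, had the largest decrease of the 9 genes. It read 7.87, 7.88, 7.40, 7.66 and 6.98 in knockout replicates 1 to 5 and 9.03, 8.72, 8.96, 9.03 and 8.92 in control replicates 1 to 5. Every knockout array lay below every control array, and the knockout arrays were spread more widely, with replicate 5 the lowest. Group means were 7.56 ± 0.38 and 8.93 ± 0.13 (SD, n = 5 each), and limma gave a log2 fold change of -1.37 ± 0.17 (SE, adjusted p = 0.00138). By size it ranked 9 among the 209 genes called lower. The fall passed without any 1 array, between -1.45 and -1.23 on the log2 scale.

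Clec1b is also expressed by platelets and by Kupffer cells, the macrophages of the liver. By limma, 0 of 9 measured platelet markers passed (1 had an unadjusted p under 0.05), and the platelet list mean was 3.93 to 4.02 in the knockout and 3.91 to 4.04 in the control arrays. By limma, 0 of 12 Kupffer cell markers passed, also without adjustment, and their list mean was 6.80 to 7.86 in the knockout and 5.45 to 8.22 in the control arrays. In control replicates 1 and 4, picked with their values in view, that mean was 5.45 and 8.22, and Clec1b read 9.03 in both. The share of the Clec1b signal that came from Kupffer cells or platelets was not tested. With the Kupffer cell mean as a covariate the log2 fold change of Clec1b was -1.36 (adjusted p = 0.00199 by limma), and with the platelet mean it was -1.41 (adjusted p = 0.00175). With the neutrophil and monocyte mean it was -1.75 and no longer passed (adjusted p = 0.533 by limma). That mean did not overlap between the groups. The fit with it called 0 of 24704 genes, so this lost call says nothing particular to Clec1b. The fall of Clec1b went with a lower sinusoidal list mean, whose groups did not overlap either, and the part of that in the result was not tested.

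The genes whose array pattern was most like that of Clec1b, by the root mean square difference of values centred on each gene's mean over the 10 arrays, were Gna14, a G protein alpha subunit (0.226 log2 units), the SLAM family receptor Cd84 (0.233) and the scaffold protein Iqgap2 (0.255). All 3 fell in the knockout, Gna14 by 1.30, Cd84 by 1.54 and Iqgap2 by 1.24 on the log2 scale. A measure over the same 10 arrays picks genes with a like group difference, so their fall is not a separate result.

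Clec4g, the gene whose control sequences drive Cre in the knockout, fell as well. It read 11.13, 10.92, 11.46, 11.54 and 10.94 in the knockout arrays and 11.78, 12.13, 11.94, 12.08 and 11.84 in the controls. The groups did not overlap, the nearest values being knockout replicate 4 and control replicate 1. Group means were 11.20 ± 0.29 and 11.96 ± 0.15 (SD, n = 5 each), and the log2 fold change was -0.76 ± 0.14 (SE, adjusted p = 0.0207 by limma). Leaving out any of 5 arrays, knockout replicates 1 and 2 and control replicates 2, 3 and 4, ended this call, with an adjusted p by limma of 0.0538 to 0.0598 and a log2 fold change of -0.76 to -0.69. The call also ended with the neutrophil and monocyte list mean as a covariate (-0.85, adjusted p = 0.867 by limma) and with the dendritic cell mean (-0.65, adjusted p = 0.113). The first of these means did not overlap between the groups. With it limma called 0 of 24704 genes, so that lost call says nothing particular to Clec4g. Clec4g is itself typical of sinusoidal endothelium, and its difference of -0.76 stands beside the median of -0.54 over the 10 sinusoidal markers, which were lower in the same arrays. An array value cannot tell the endogenous gene from transcripts that a transgene with Clec4g sequence might give.

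By the same measure of likeness, the patterns nearest to Clec4g were those of the palmitoyltransferase gene Zdhhc18 (0.122 log2 units), the homeobox factor gene Meis1 (0.130) and the RAB5 effector gene Rin2 (0.132). They fell by 0.74, 0.57 and 0.67 on the log2 scale, which follows from how they were picked. Clec1b minus Clec4g was -3.64 ± 0.45 (SD, n = 5) in the arrays labelled knockout and -3.02 ± 0.25 (SD, n = 5) in the controls. These ranges overlapped, at -4.05 to -3.05 and -3.42 to -2.75, and the pair was picked with its values in view, so no test is given.

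Of Cd209a and Cd209b, which lie in the cluster of DC-SIGN relatives, the first rose and the other did not pass. Cd209a read 6.24, 5.82, 5.60, 5.89 and 5.46 in the knockout arrays and 4.86, 3.25, 3.26, 2.83 and 3.53 in the controls. All knockout arrays lay above all controls, and control replicate 1 stood above the other 4 controls, which were under the array median of 3.71. Group means were 5.80 ± 0.30 and 3.54 ± 0.78 (SD, n = 5 each), 2.26 ± 0.32 (SE) apart on the log2 scale (adjusted p = 0.00376 by limma). The difference was 2.58 (adjusted p = 6.02e-05) without control replicate 1, and it passed without any 1 array. The control mean lies under the array median, where signal over background is small, so 4.78 is a fold of array signal and its relation to RNA amount was not tested. Among the 320 genes called higher, Cd209a ranked 25 by size.

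Cd209b, which encodes SIGN-R1, a receptor for microbial polysaccharides, read 5.11, 5.46, 5.66, 5.58 and 5.99 in the knockout arrays and 5.71, 7.09, 6.99, 6.56 and 6.90 in the controls. Control replicate 1 lay within the knockout range and the other 4 controls above it. Group means were 5.56 ± 0.32 and 6.65 ± 0.56 (SD, n = 5 each). The difference of -1.09 ± 0.25 (SE) did not pass, with an adjusted p by limma of 0.0529. Without control replicate 1 it was -1.33 (adjusted p = 0.00184), and without knockout replicate 5 it was -1.20 (adjusted p = 0.046), and both passed. Cd209a minus Cd209b was -3.11 ± 1.27 (SD, n = 5) in the controls and 0.24 ± 0.61 (SD, n = 5) in the knockout arrays, a pair likewise picked with its values in view and given without a test. The patterns nearest to Cd209b were those of Gramd1c (0.254 log2 units), Cyp1a1 (0.254) and the ATP-gated channel gene P2rx4 (0.260). Of these, Gramd1c and P2rx4 fell, by 1.37 and 0.99 on the log2 scale, and Cyp1a1 was at -0.86 without passing (adjusted p = 0.147 by limma). Their shared direction follows from how they were picked.

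Cd209a is also known from dendritic cells derived from monocytes. Of 10 dendritic cell markers 6 had a positive and 4 a negative difference, and the median log2 fold change was 0.02. Only Cd24a passed, higher (log2 fold change 1.71 ± 0.38 SE, adjusted p = 0.0434 by limma), and Cd24a is not restricted to those cells. The list mean was 3.82 to 4.06 in the knockout and 3.75 to 3.96 in the control arrays, and control replicate 1 had the highest control value for the list and for Cd209a. With this mean as a covariate the log2 fold change was 1.49 for Cd209a (adjusted p = 0.0361 by limma) and -0.50 for Cd209b (adjusted p = 0.274). With the neutrophil and monocyte list mean, whose groups did not overlap, as a covariate limma called 0 of 24704 genes, with 1324 at an unadjusted p under 0.05, and the estimate for Cd209a was 2.80 (adjusted p = 0.655).

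The other 5 Cd209 genes on the array, Cd209c to Cd209g, did not pass. Their log2 fold changes ranged from -0.67 for Cd209f to 0.23 for Cd209e, and their group means from 1.71 to 3.62, all under the array median. The direction of Cd209d, at 0.01, changed sign in 5 of the 10 fits that each left out 1 array. These genes are close copies, and no source used here says how far their probes tell them apart.

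**Figure D2:**
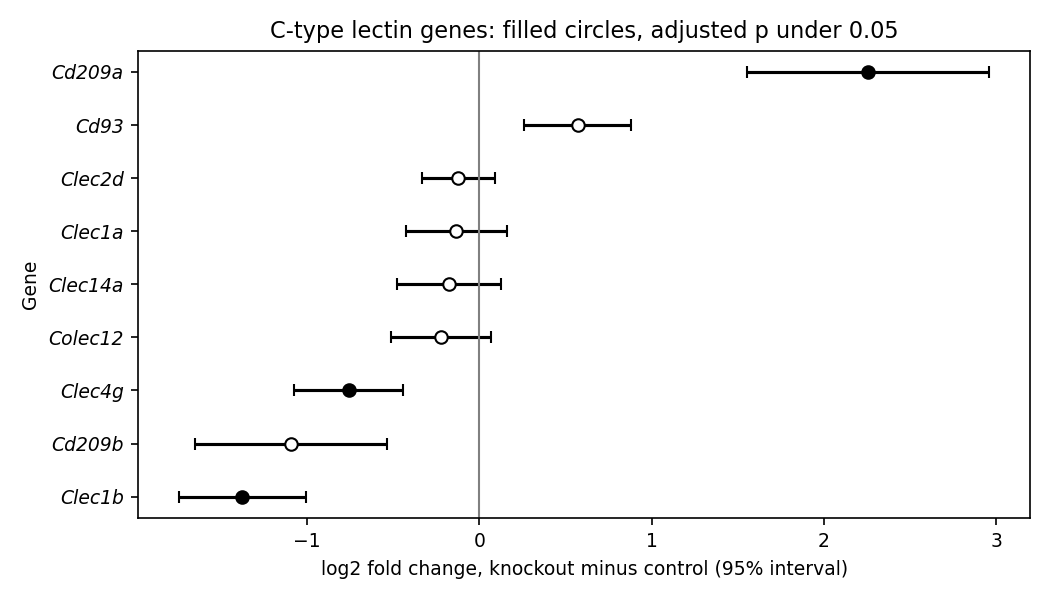
Log2 fold change, knockout minus control, of each of the 9 C-type lectin genes (circle) with its 95% interval (bar) by limma. Filled circles mark Cd209a at 2.26, Clec4g at -0.76 and Clec1b at -1.37, which passed an adjusted p of 0.05. The intervals of Cd93 and Cd209b also lie on 1 side of 0, but neither passed the adjusted threshold.

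The genes that flank Clec4g were compared because Cd209a lies near the driver gene. In RefSeq gene order (assembly GRCm38.p6, used for order only) the 10 measured genes on each side were taken. Of these 20, 4 passed, all higher: Mcemp1, Fcor and Trappc5 on 1 side and Cd209a on the other. They lie within 4 measured genes of Clec4g. The labels do not say which of these genes the Cre transgene holds, or whether the controls carried it. Sequence on the transgene and the loss of Gata4 cannot be told apart here as sources of these changes. Over all genes 1.3% were called higher. The median log2 fold change of the 20 was -0.07, against -0.02 over all genes. Leaving out 1 array at a time gave 4 to 5 neighbours higher and 0 to 1 lower.

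Trappc5, a subunit of the TRAPP vesicle tethering complex, read 7.56, 8.01, 7.62, 7.81 and 8.04 in the knockout arrays and 5.99, 5.73, 5.77, 5.63 and 5.86 in the controls. The groups were narrow and far apart, with 7.81 ± 0.22 against 5.80 ± 0.13 (SD, n = 5 each). Trappc5 rose by 2.01 ± 0.12 (SE, adjusted p = 6.37e-05 by limma) on the log2 scale. Its unadjusted p ranked 1 among the 24704 genes.

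Fcor, which encodes a corepressor of the transcription factor FOXO1, read 7.76, 7.98, 6.97, 7.98 and 7.53 in the knockout arrays and 4.07, 4.68, 3.63, 4.39 and 4.48 in the controls. Its lowest knockout array, replicate 3, was well above its highest control array, replicate 2. Fcor rose by 3.40 ± 0.23 (SE) on the log2 scale, which ranked 2 by size among the 320 genes called higher and 3 by p over all genes.

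Mcemp1, a membrane protein gene known from mast cells and other myeloid cells, read 5.47, 7.64, 5.89, 6.88 and 6.51 in the knockout arrays and 3.33, 3.02, 3.29, 3.78 and 3.46 in the controls. It rose by 3.10 ± 0.34 (SE, adjusted p = 0.000744 by limma) on the log2 scale. The knockout arrays with the 2 highest Mcemp1 values, replicates 2 and 4, also had the 2 highest neutrophil and monocyte list means, 6.11 and 5.85, against 4.61, 4.72 and 4.73 in replicates 1, 3 and 5. Fcor was highest in replicates 2 and 4 as well, while Trappc5 was highest in replicate 5. Both lay above the controls in every knockout array, as 2.55% of all genes did. The cell source of these rises was not tested. With the neutrophil and monocyte list mean as a covariate the estimates were 1.32 for Mcemp1, 2.69 for Fcor and 1.84 for Trappc5. Their adjusted p values were 0.879, 0.302 and 0.237 by limma. That list mean did not overlap between the groups, and the fit called 0 of 24704 genes.

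Fcer2a, the gene next to Clec4g, encodes the low-affinity IgE receptor CD23, itself a C-type lectin. It read 5.22, 5.00, 5.42, 5.55 and 6.82 in the knockout arrays and 5.40, 3.94, 3.74, 3.79 and 3.59 in the controls. Control replicate 1 lay among the knockout values, and the other 4 controls lay below all of them. The difference of 1.51 ± 0.39 (SE) on the log2 scale did not pass (adjusted p = 0.0813 by limma). Without control replicate 1 it was 1.84 (adjusted p = 0.00716). Fcer2a is known from B cells, and 0 of 7 measured B cell markers, a list that includes Fcer2a, passed by limma. The 1 marker with an unadjusted p under 0.05 was Fcer2a itself. The list mean was 3.37 to 3.79 in the knockout and 3.16 to 3.60 in the control arrays.

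The other neighbours did not pass. On the side of Fcor, Retn, the resistin gene, was at 0.66 ± 0.35 (SE), and the next 5 genes, Stxbp2 to Camsap3, lay between -0.56 and 0.06. On the other side, past Cd209a, the next 8 genes lay between -1.09 for Cd209b and 0.23 for Cd209e, with Cd209f at -0.67. The long noncoding RNA Gm16553, the nearest measured gene on that side, was at -0.19 ± 0.12 (SE). It overlaps Clec4g in the annotation, and no source used here says whether its probes tell the overlapping transcripts apart.

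**Figure D3:**
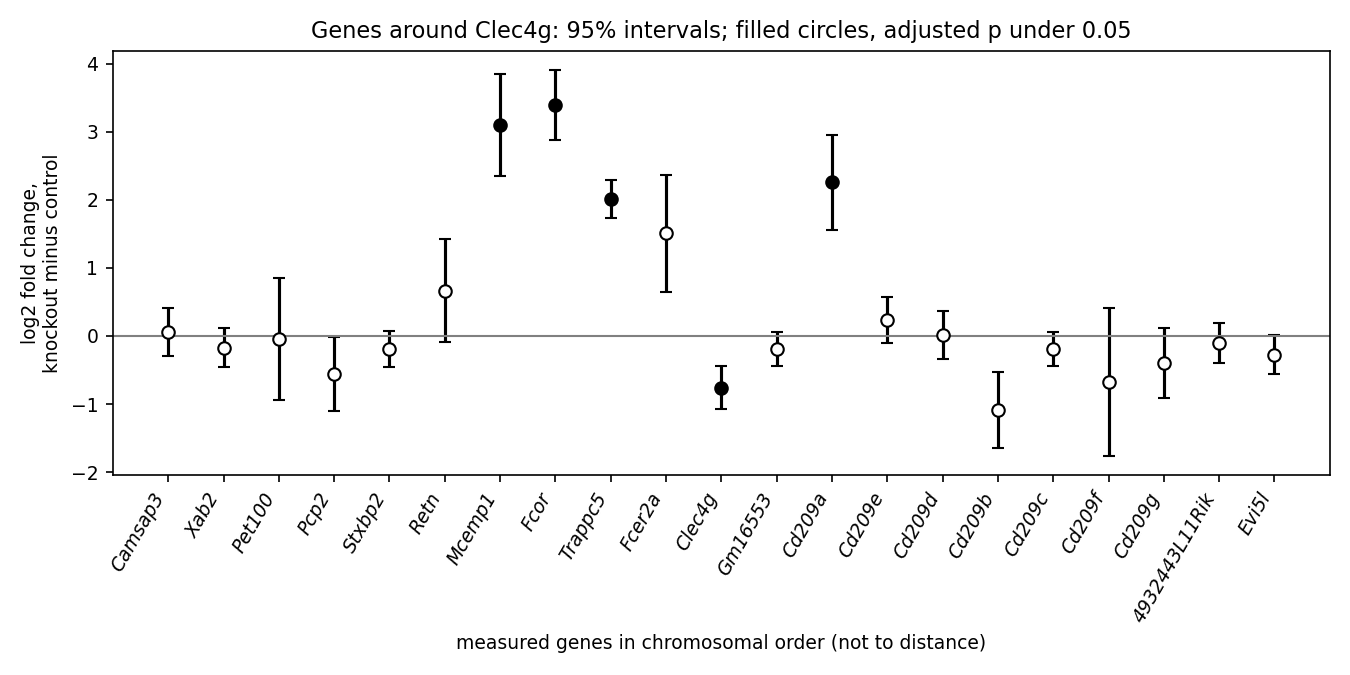
Log2 fold change, knockout minus control, with 95% intervals (bars) by limma, of Clec4g and the 10 measured genes on each side in chromosomal order, not drawn to distance. Filled circles passed an adjusted p of 0.05. Mcemp1, Fcor, Trappc5 and Cd209a lie between 2.01 and 3.40 and Clec4g at -0.76.

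**Figure D4:**
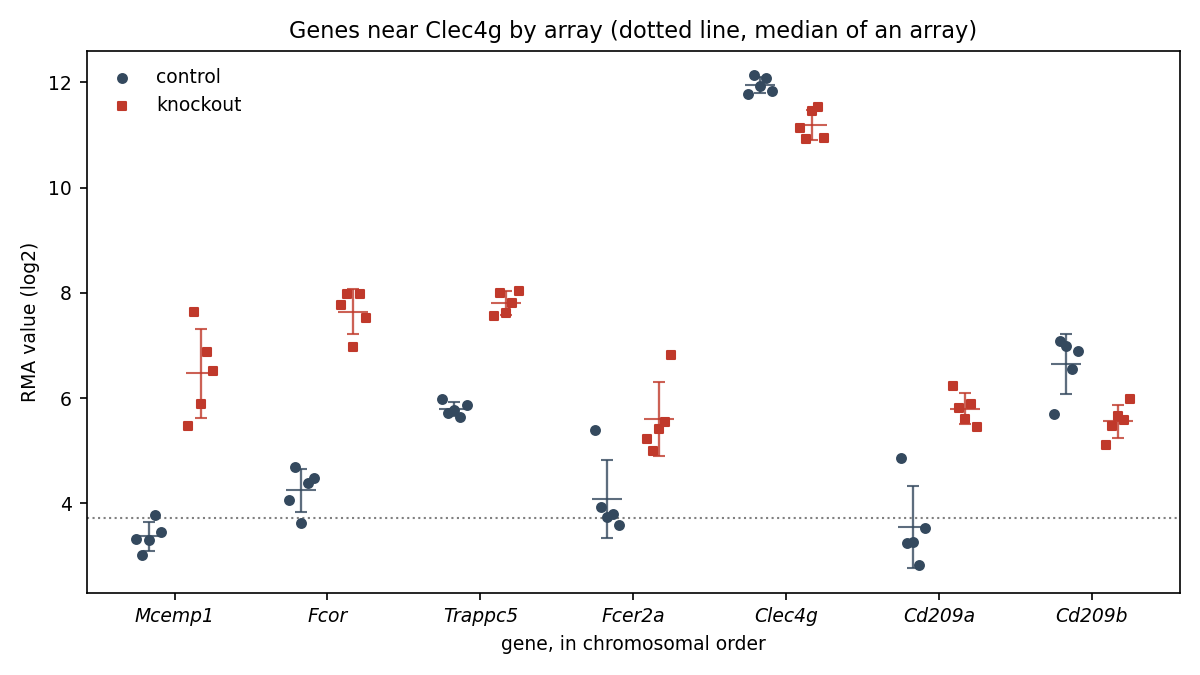
RMA values (log2, vertical axis) of genes near Clec4g in 5 control arrays (circles) and 5 knockout arrays (squares), with the mean and SD of each group. The groups are apart for Mcemp1, Fcor, Trappc5, Clec4g and Cd209a, while the control array at 5.40 for Fcer2a and the one at 5.71 for Cd209b lie among the knockout values.

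Neither Cd93 nor Clec14a, whose endothelial proteins share a ligand, passed the threshold. Cd93 read 9.26, 9.07, 9.55, 9.25 and 9.71 in the knockout arrays and 8.50, 8.99, 8.88, 8.88 and 8.74 in the controls. Every knockout array was above every control array, by a margin of 9.07 to 8.99 at the nearest. Group means were 9.37 ± 0.25 and 8.80 ± 0.19 (SD, n = 5 each), and the difference of 0.57 ± 0.14 (SE) on the log2 scale did not pass (adjusted p = 0.0707 by limma).

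Clec14a read 8.61, 8.98, 9.34, 9.21 and 9.28 in the knockout arrays and 9.19, 9.32, 9.31, 9.22 and 9.24 in the controls. The groups overlapped, with knockout replicates 1 and 2 the lowest and the SD larger in the knockout (0.295) than in the control arrays (0.0576). Limma gave a log2 fold change of -0.18 ± 0.14 (SE, adjusted p = 0.638), with a 95% interval from -0.48 to 0.12. Cd93 minus Clec14a was -0.46 ± 0.15 (SD, n = 5) in the controls and 0.29 ± 0.25 (SD, n = 5) in the knockout arrays, which describes a pair picked with its values in view.

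The remaining 3 members did not pass, and their groups overlapped. Clec1a, a receptor of endothelial and myeloid cells, read 6.59, 6.58, 7.01, 6.70 and 6.63 in the knockout arrays and 6.46, 6.98, 6.92, 6.80 and 7.01 in the controls. Knockout replicate 3 lay at the top of the control range and control replicate 1 below all knockout arrays. Clec1a was at -0.13 ± 0.13 on the log2 scale (SE, adjusted p = 0.725 by limma, 95% interval from -0.42 to 0.16).

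Clec2d, the NK receptor ligand gene, read 9.02, 8.97, 8.79, 8.82 and 8.75 in the knockout arrays and 9.13, 8.96, 9.01, 8.96 and 8.90 in the controls. Its spread was among the smallest here, with an SD of 0.118 and 0.0878. Its log2 fold change was -0.12 ± 0.10 (SE, adjusted p = 0.644 by limma, 95% interval from -0.33 to 0.09).

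Colec12, the scavenger collectin gene, read 5.71, 6.20, 6.13, 5.88 and 5.63 in the knockout arrays and 5.93, 6.15, 6.15, 6.11 and 6.31 in the controls. Knockout replicates 1, 4 and 5 lay below all controls and the others among them. Its log2 fold change was -0.22 ± 0.13 (SE, adjusted p = 0.527 by limma, 95% interval from -0.51 to 0.07). For these 3 genes and Clec14a the intervals leave room for decreases of up to 0.33 to 0.51 on the log2 scale.

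Among known ligands and signalling partners of these receptors, 0 of 20 genes passed by limma, with 7 at an unadjusted p under 0.05, which 13.6% of all genes had. Their median log2 fold change was 0.22, against -0.02 over all genes. Pdpn, the podoplanin ligand of CLEC-2, read 4.96 ± 0.27 against 4.40 ± 0.37 in the controls (SD, n = 5), at 0.57 ± 0.19 (SE, adjusted p = 0.182 by limma). Syk was at 0.39 ± 0.15 (SE). Multimerin 2, Mmrn2, the ligand shared by CLEC14A and CD93, read 9.60 ± 0.19 against 9.76 ± 0.19 (SD, n = 5), at -0.16 ± 0.13 (SE). Igfbp7, another ligand of CD93, was at -0.04 ± 0.16 (SE). Gipc1, an adaptor that binds CD93, was at -0.41 ± 0.17 (SE, adjusted p = 0.323 by limma). It is named because it was the 1 gene of the list whose groups did not overlap, as 4.93% of all genes did not. Its nearest values were 7.57 in the knockout and 7.62 in the control arrays, and control replicate 1 stood apart at 8.61. The LSECtin ligands Cd44 and Lag3 were at 0.74 ± 0.19 (SE, adjusted p = 0.0834 by limma) and 0.18 ± 0.13 (SE), and Klrb1b, an NK receptor for the Clec2d product, at 0.22 ± 0.14 (SE).

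In the rest of the C-type lectin family, 1 of 60 measured genes rose, 2 fell and 57 did not pass, while 2.14% of all genes were called. The median log2 fold change was 0.12, against -0.02 over all genes. Pla2r1, the phospholipase receptor of the mannose receptor family, was 1.90-fold lower (6.50 ± 0.32 against 7.43 ± 0.27, SD, n = 5; adjusted p = 0.02 by limma). Its relative Mrc1, the mannose receptor of sinusoidal endothelium, was 1.48-fold lower (10.90 ± 0.24 against 11.46 ± 0.11, SD, n = 5; adjusted p = 0.044 by limma). E-selectin, Sele, an adhesion molecule of activated endothelium, was 2.04-fold higher (4.32 ± 0.36 against 3.29 ± 0.42, SD, n = 5; adjusted p = 0.0389 by limma), and its groups overlapped at 3.91 and 3.92. The control mean of Sele lies under the array median of 3.71, so 2.04 is a fold of array signal. Mrc1 is also 1 of the 10 sinusoidal markers. All 3 calls rested on most of the arrays. Pla2r1 no longer passed in 6 of the 10 fits that each left out 1 array (those without knockout replicate 1 or 2, or without a control other than replicate 1), at an adjusted p by limma of up to 0.0563. Mrc1 no longer passed in 7 of them (without knockout replicate 1, 2 or 4, or a control other than replicate 1), at up to 0.107, and Sele in 8 (without a knockout array other than replicate 2, or a control other than replicate 1), at up to 0.103.

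Groups did not overlap in 5 of the 60, Pla2r1 and Mrc1 among them, and in 4.93% of all genes. The other 3 did not pass, and they are named with their values in view. Clec7a, the beta-glucan receptor dectin-1 of myeloid cells, was at 1.33 ± 0.32 (SE, adjusted p = 0.0612 by limma), and Clec4d, a receptor of myeloid cells, at 0.65 ± 0.24 (SE). Layn, a hyaluronan receptor, was at -0.51 ± 0.12 (SE, adjusted p = 0.0612 by limma). Thbd (thrombomodulin) and Cd248 (endosialin), the relatives of Cd93 and Clec14a, were at 0.51 ± 0.25 (SE) and 0.23 ± 0.15 (SE) without passing. Clec4f, the Kupffer cell lectin, was at -0.15 ± 0.37 (SE), with values from 7.83 to 9.18 in the knockout and 7.64 to 9.50 in the control arrays.

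**Figure D5:**
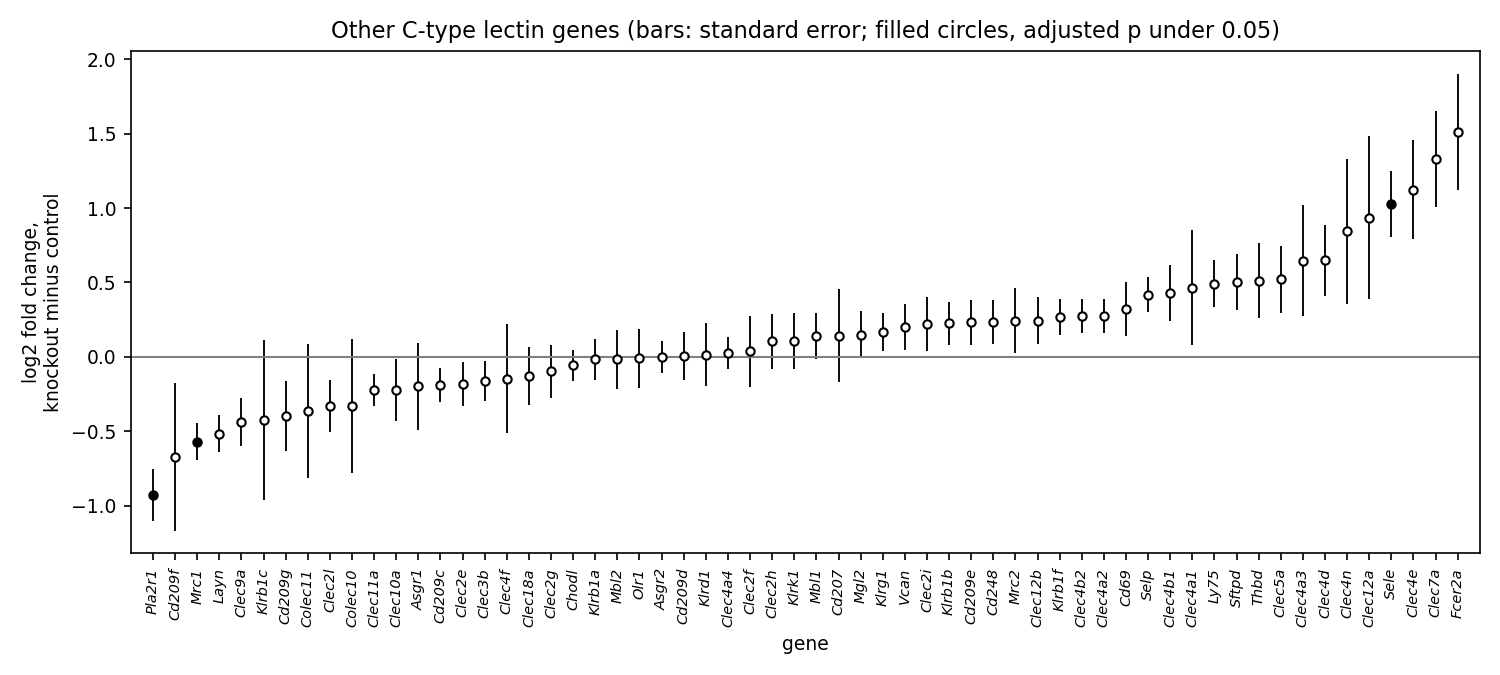
Log2 fold change, knockout minus control, of 60 other C-type lectin genes, ordered by size, with the standard error as bars. Filled circles mark Pla2r1 at -0.93, Mrc1 at -0.57 and Sele at 1.03, which passed an adjusted p of 0.05. Fcer2a, at 1.51, has the largest value and did not pass.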

How the data were processed

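RNA of 10 pools of 3 mice was hybridised to 1-colour Affymetrix arrays. The authors' deposited log2 values come from RMA, as the submitters' processing notes name it without a version. The log2 scale was read from the range. The sorted values of no array exceeded those of knockout replicate 2 by more than 0.00186, and none was normalized again. How far sorted values lay below those of that array was not measured. Array depth has no count, and the 5 arrays per group limit the precision. P-values reflect how far these pools vary.

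Of 25428 probe sets, 723 without a symbol were left out. The brighter was kept where 1 symbol had several, which left 24704 genes, 24673 of them matched in RefSeq. Knockout was compared with control by limma 3.58.1 in R 4.3.3 (lmFit, eBayes, tests in both directions, no filter), adjusted over all genes. The procedure was tested on simulated data. Members and lists were chosen with earlier results of these data known.

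Named were the 9 members, Gata4, neighbours of Clec4g that passed or lay within 3 genes, set genes and those past the threshold of each list, and up to 3 passing markers per list in the tables. For lists without a passing marker only counts and means are given. Same-numbered arrays did not deviate together (correlations of -0.165 to 0.0389), so replicate numbers were not used as pairs. Alternatives were each array left out, a block, a filter, a trend, array weights and covariates.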

Additional observations from a re-analysis of the deposited data

Results flagged for a closer look

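In groups of 5, a single array stood far from the other 4 in 6 of 118 gene and group combinations examined, where chance gives about 1 in 20. Control replicate 1 accounts for 3 of them. In that array Fcer2a read 5.40, with the next control at 3.94. Mmrn2 read 9.43 there, with the next at 9.79, and Gipc1 read 8.61, with the next at 7.78. Clec1a read 7.01 in knockout replicate 3, with the next knockout array at 6.70. Cd209e read 2.52 in knockout replicate 4 against 1.87, and Clec4d read 4.30 in knockout replicate 2 against 3.22.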

How the results depend on the processing

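The fall of Clec1b and the rise of Cd209a, and those of Fcor, Mcemp1 and Trappc5, passed under every alternative run except the neutrophil and monocyte covariate. That covariate and the dendritic cell one were added after the data were seen. Clec1b ranged from -1.75 to -1.23 and Cd209a from 1.49 to 2.80. The neutrophil and monocyte list mean did not overlap between the groups. With it limma called 0 genes of any kind, higher or lower, and 1324 of 24704 had an unadjusted p under 0.05. Clec4g was then at -0.85, Cd209a at 2.80 and Clec1b at -1.75, and signs turned for Cd209e (-0.21), Cd209d (-0.58), Cd248 (-0.050), Pdpn (-0.10), Cd44 (-0.0043), Klrb1b (-0.19), Clec4d (-0.57), Clec7a (-0.052) and S100a8 (-0.10), a gene of that list.

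With the dendritic cell mean, 2 members passed higher and 1 lower, and in the other lectins 2 higher and 1 lower. Pla2r1, Mrc1 and Sele lost their calls, as did Clec4g (-0.65, adjusted p = 0.113 by limma), Cd93 passed (0.81), and signs turned for Clec1a (0.17), Clec14a (0.032), Cd209d (-0.0783), Cd209f (0.29), Clec4f (0.30), Mmrn2 (0.10), Igfbp7 (0.29) and Gata4 (0.057). With the platelet mean 2 members passed higher and 1 neighbour lower, Cd209b at -1.001 and Cd93 at 0.62 passed, Sele lost its call (adjusted p = 0.0529 by limma), and Cd209d (-0.0043) and Igfbp7 (0.019) changed sign. With the Kupffer cell mean Cd209b passed (-1.17), as did 1 neighbour lower, and 3 other lectins were higher.

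Restricting the test to genes above the array median, or an intensity trend, let Cd209b (-1.09) and Cd93 (0.57) pass, so that 2 members were higher and 1 neighbour lower. The filter also gave 2 other lectins higher. Exact permutation, not adjusted for other genes, gave p = 0.0159 for Cd209b and 0.00794 for Cd93. The latter is the smallest value that 5 against 5 arrays can give. It follows from the lack of overlap already stated, so it is not separate support. Array weights called 616 genes higher and 454 lower, 4 other lectins and 1 partner higher, and 1 neighbour lower, Cd209b (-1.32). The replicate block, for numbers that do not pair the arrays, called 200 genes higher and 75 lower, 1 other lectin and 1 neighbour lower. Clec4g (-0.76) lost its call under the block (adjusted p = 0.0603 by limma), as did Mrc1 (0.115), and Cd209b (-1.09) gained one (0.0308).

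Leaving out 1 array at a time gave 1 to 3 members lower, 182 to 394 genes higher and 105 to 343 lower, 0 to 3 other lectins higher and 0 to 3 lower, 0 to 1 partner higher and 0 to 1 neighbour lower. Clec4g ranged from -0.84 to -0.69, Cd209b from -1.33 to -0.98, Cd209d from -0.073 to 0.11, Clec4f from -0.38 to 0.081 and Igfbp7 from -0.17 to 0.025. The causes were not tested. Genes near the array median have little signal over background, which limits what can be said of their folds.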
